A study of Mus musculus with 44 samples.

Results

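The 8 genes described here belong to FGF and ERK signaling: the ligand gene *Fgf4*, the receptor genes *Fgfr1* and *Fgfr2*, the feedback inhibitor genes *Spry2*, *Spry4* and *Dusp6*, and the transcription factor genes *Etv4* and *Etv5*. Their members are all 200 bp ATAC-seq peaks of the deposited table within 20 kb of a fixed interval for each gene, 135 of 152393 peaks. The rule uses no measured value, but the genes were chosen with earlier results of these data known. *Fgf4* had 15 peaks, *Fgfr1* 21, *Fgfr2* 32, *Spry2* 12, *Spry4* 17, *Dusp6* 10, *Etv4* 5 and *Etv5* 23. ATAC-seq marks open chromatin by the insertions of the Tn5 transposase, and 44 libraries were made from pools of mouse embryos. *Pou5f1* (the gene of Oct4) was studied with 3 KO and 3 Ctrl libraries of morulae (E2.75), the same of late morulae (E3.25), and 4 KO and 4 Ctrl libraries of early ICMs (E3.75) and of late ICMs (E4.5), and *Sox2* was studied with 4 KO and 4 Ctrl libraries of each ICM stage. KO embryos came from *Pou5f1* flox/flox; Zp3-Cre or *Sox2* flox/flox; Zp3-Cre mothers, in which Cre acts in the oocyte, and from *Pou5f1* +/mKO2 or *Sox2* +/EGFP fathers, and they carry the fluorescent null allele and no maternal copy. KO embryos were picked by this fluorescence, which the PGK promoter drives. Ctrl embryos are those without fluorescence from the same matings, which also lost the maternal copy and have 1 working paternal copy, so neither group is wildtype. The labels give B6C3F1 under a cell line tag, read here as the background name. All ICMs came from embryos kept in culture from E2.5 with 1 μM of the MEK inhibitor PD0325901 and were isolated by immunosurgery, while morulae had neither treatment. The inhibitor blocks the kinase step above ERK, so in both genotypes the ICM values describe these loci under a blocked ERK pathway.

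FGF ligands bind receptor tyrosine kinases and start a chain of kinases that includes MEK and ERK. ERK signaling switches on its own inhibitors, among them Sprouty proteins and the ERK phosphatase Dusp6, and the ETS factors Etv4 and Etv5, so these genes are widely used as readouts of the pathway. In the mouse blastocyst *Fgf4* is made by epiblast cells, and the receptors Fgfr1 and Fgfr2 carry the signal that directs other ICM cells to the primitive endoderm. Oct4 and Sox2 bind together at a composite DNA word, and a downstream enhancer of *Fgf4* is a textbook example of such binding.

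The windows that carry the results are shown first, on the plus strand of GRCm38 (mm10), with the base run that matched the motif named for the window in capitals. A motif found on the minus strand reads as its reverse complement. Peaks are named by the distance of their centre from the start site of the main transcript, negative upstream. The composite word of the *Fgf4* +3.0 kb peak (chr7:144864286-144864485, in the 3' part of the gene) is given without the rest of the window, because the peak lies in a UTR. The −3.3 kb peak of *Fgf4* (chr7:144858007-144858206) had the largest loss of signal and holds an ESRRB word on the plus strand. The *Etv5* peaks at +41.0 kb (chr16:22398471-22398670), +36.8 kb (chr16:22402694-22402893) and +27.7 kb (chr16:22411833-22412032) lost signal in *Pou5f1*-KO embryos and hold OCT-SOX words on the minus strand, the first pair with 3 mismatches and the last with 1 in the spaced form, where the OCT part is exact. The *Fgfr2* +112.8 kb peak (chr7:130148968-130149167, GATA word on the minus strand) and the *Dusp6* +15.2 kb peak (chr10:99278286-99278485, GATA word on the plus strand) gained signal in both knockouts. Other searched words in these windows stand in lower case, namely TEAD and TFAP2 words in the *Fgf4* −3.3 kb window, KLF and ESRRB words in the *Etv5* +36.8 kb window, a further SOX word in the *Etv5* +27.7 kb window and a TEAD word in the *Fgfr2* +112.8 kb window.
Fgf4 +3.0 kb, site: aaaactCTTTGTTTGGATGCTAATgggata
Fgf4 −3.3 kb: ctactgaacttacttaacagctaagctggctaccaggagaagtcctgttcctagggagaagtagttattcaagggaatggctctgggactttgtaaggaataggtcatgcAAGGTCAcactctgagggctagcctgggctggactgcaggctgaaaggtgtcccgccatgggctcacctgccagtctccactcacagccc
Etv5 +41.0 kb: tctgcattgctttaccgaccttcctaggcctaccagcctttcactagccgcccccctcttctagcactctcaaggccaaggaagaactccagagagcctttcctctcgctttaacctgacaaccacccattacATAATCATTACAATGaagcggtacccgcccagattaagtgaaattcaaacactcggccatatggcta
Etv5 +36.8 kb: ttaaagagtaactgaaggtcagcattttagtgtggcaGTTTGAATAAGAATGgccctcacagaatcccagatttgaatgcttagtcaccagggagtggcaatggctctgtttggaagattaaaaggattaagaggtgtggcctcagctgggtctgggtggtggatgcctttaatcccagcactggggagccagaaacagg
Etv5 +27.7 kb: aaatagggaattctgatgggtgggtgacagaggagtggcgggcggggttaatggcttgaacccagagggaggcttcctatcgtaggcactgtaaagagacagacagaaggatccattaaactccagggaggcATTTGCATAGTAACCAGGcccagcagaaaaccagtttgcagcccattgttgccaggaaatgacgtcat
Fgfr2 +112.8 kb: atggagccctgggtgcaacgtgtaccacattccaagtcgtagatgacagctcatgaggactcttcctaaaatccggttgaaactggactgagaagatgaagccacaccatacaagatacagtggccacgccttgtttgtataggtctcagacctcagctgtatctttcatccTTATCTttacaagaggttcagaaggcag
Dusp6 +15.2 kb: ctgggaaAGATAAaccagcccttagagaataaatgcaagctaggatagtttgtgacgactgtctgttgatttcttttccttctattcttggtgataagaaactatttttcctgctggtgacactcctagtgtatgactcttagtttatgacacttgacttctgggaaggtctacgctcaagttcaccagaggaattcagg

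The values are rlog values, log2-like insertion counts that the authors scaled across libraries and shrank at weak peaks, so a difference of 1 is about a 2-fold change at strong peaks and differences at weak peaks are understated. Differences are KO minus Ctrl of the same line and stage, from a limma fit of all 44 libraries, and peaks with an adjusted p under 0.05 (Benjamini-Hochberg over all peaks) were called. Insertion counts were not used here and the depth of each library is unknown. Median rlog per library was 2.35 to 2.63 and the correlation of replicates across peaks was 0.762 to 0.908. Of the targeted genes, the *Sox2* coding exon held 1 peak, with an rlog of 1.14 to 2.92 in *Sox2*-KO and 2.42 to 3.50 in Ctrl late ICM, and the *Pou5f1* exon 3 peak had 2.17 to 3.45 in *Pou5f1*-KO and 2.04 to 3.00 in Ctrl late ICM. Both ranges overlap, so these peaks do not separate the genotypes. The mean rlog over 23 peaks at 7 epiblast marker genes other than *Fgf4* was 3.06 to 3.35 in *Pou5f1*-KO late ICM against 4.12 to 4.41 in Ctrl, and 3.57 to 3.92 in *Sox2*-KO against 4.20 to 4.35 in Ctrl. For 21 peaks at 8 trophectoderm marker genes the ranges were 3.69 to 3.95 against 3.56 to 3.93 in the *Pou5f1* line and 3.91 to 4.18 against 3.30 to 3.64 in the *Sox2* line, and for 20 peaks at 8 primitive endoderm marker genes 2.88 to 3.18 against 3.00 to 3.48 and 3.00 to 3.58 against 2.98 to 3.30. The part of these shifts in the results below was not tested, and in pooled ICMs fewer cells of a type and less signal per cell cannot be told apart.

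The called peaks were unevenly spread over the 8 loci. In *Pou5f1*-KO late ICM 21 of the 135 peaks were called lower, beside 10.1% of all peaks, and 14 were called higher, beside 8.19%. In *Sox2*-KO late ICM 12 were lower (all peaks 4.88%) and 9 higher (2.71%). Of the lower calls in *Pou5f1*-KO, 7 lay at *Fgf4* and 6 at *Etv5*, and in *Sox2*-KO 10 lay at *Fgf4*. *Fgfr2* had 9 and 7 of the higher calls. The median difference of the members was −0.0954 in *Pou5f1*-KO and 0.0518 in *Sox2*-KO late ICM, against −0.0374 and 0.0144 over all peaks, so the loci as a list were centred close to 0. KO and Ctrl libraries did not overlap at 16 of the 21 lower calls (79.1% of all lower calls of the series) and 9 of the 14 higher calls (73.7%) in *Pou5f1*-KO. In *Sox2*-KO they did not overlap at 8 of the 12 lower calls (85.5% over the series) and all 9 higher calls (79.3%). Most called peaks of the series were separated in this way, and nothing particular to these loci is read from these counts. The counts of higher calls moved with the settings. In *Sox2*-KO they were 3 after quantile normalization, 3 with the eBayes step without its trend and 5 with an absolute difference of at least 1 required, and in *Pou5f1*-KO they were 9 with that requirement and 9 within 10 kb of a gene. After quantile normalization the lower count of *Sox2*-KO was 9, and among the stronger peaks alone it was 8. Without Ctrl late ICM replicate 2 the higher calls of *Pou5f1*-KO fell from 14 to 8. In *Sox2*-KO the lower calls were 5, 6 and 5 without Ctrl replicate 1, Ctrl replicate 2 and KO replicate 3, and the higher calls were 5 without Ctrl replicate 1 or KO replicate 4. Many single calls were near the threshold. Of the called peaks, 12 of the 21 lower and 6 of the 14 higher in *Pou5f1*-KO, and 3 of the 12 and 3 of the 9 in *Sox2*-KO, stayed called in every alternative fit and with each library left out in turn. Below, a call said to be lost without certain libraries was lost when each was left out alone, with the difference in rlog or its range in parentheses, and a call without such a remark was kept in the refits, quantile normalization and leave-outs, while the stricter rule of an absolute difference of at least 1 was applied only to counts.

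**Figure D1:**
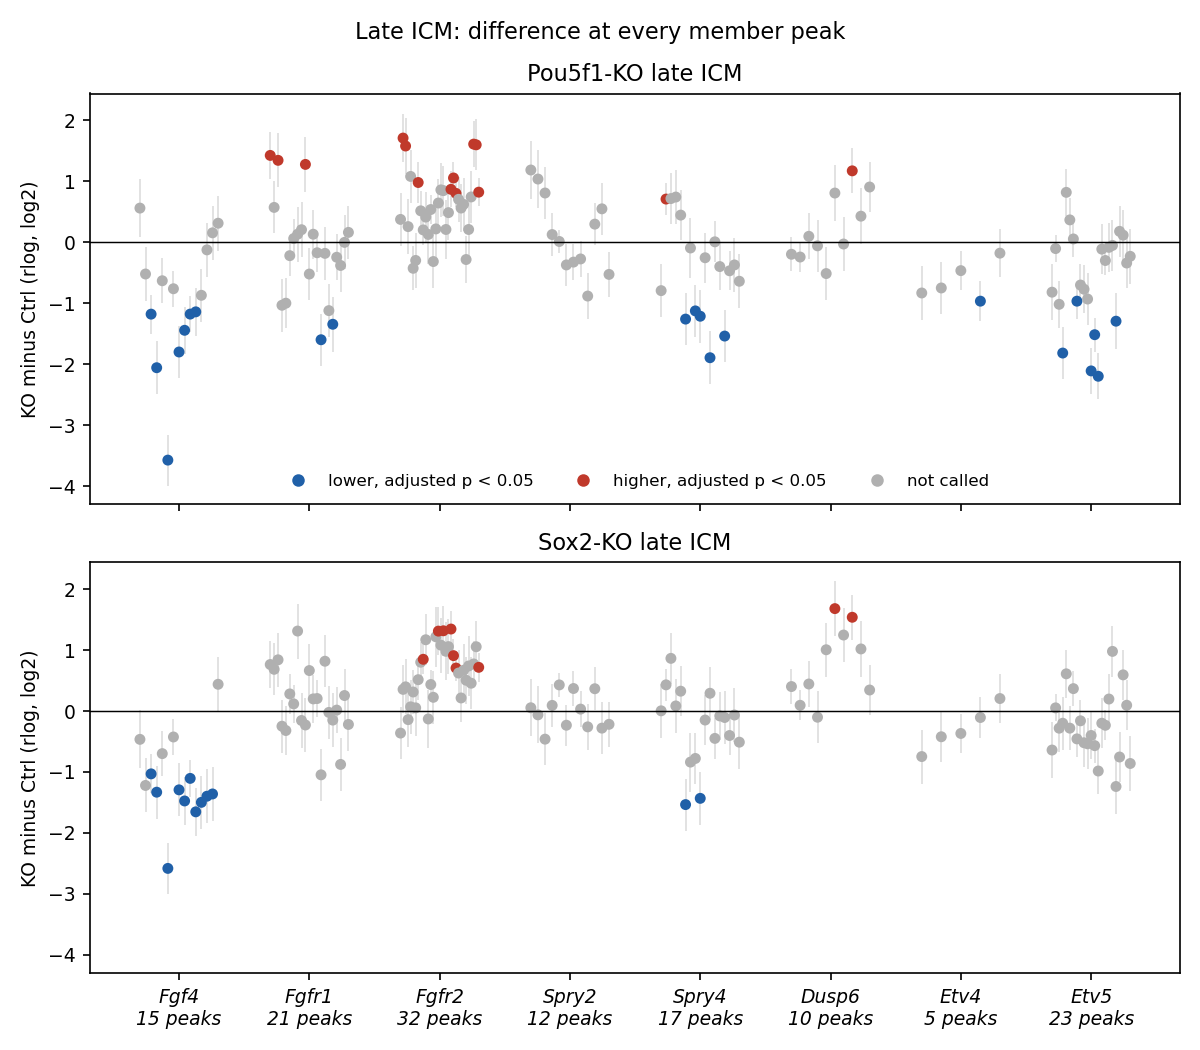
KO minus Ctrl difference in rlog (log2 scale, y axis) of all 135 peaks in late ICM, by locus (x axis), for *Pou5f1*-KO and *Sox2*-KO, with bars of 1 standard error. Blue peaks were called lower, red peaks higher and grey peaks not called. Blue points gather at *Fgf4* in both panels and at *Etv5* in the *Pou5f1*-KO panel, and red points at *Fgfr2* in both.

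At earlier stages few members differed. Chosen after the values were seen, the *Fgf4* peaks had a mean rlog of 2.87 to 3.12 in Ctrl and 3.20 to 3.71 in *Pou5f1*-KO morulae. In late morulae they had 2.17 to 2.49 and 2.61 to 3.07, so KO lay above Ctrl without overlap at both stages. The *Dusp6* peaks went the other way in late morulae, with 2.51 to 2.70 in Ctrl and 2.13 to 2.49 in KO. How often such separation of 3 and 3 libraries occurs over the series was not counted, and 0 of the *Fgf4* peaks were called. The median differences at *Fgf4* were 0.44 and 0.58. *Pou5f1*-KO morulae had 0 lower and 0 higher calls by limma (all peaks 0.185% and 0.0518%), with 4 and 4 members at an unadjusted p under 0.05, and late morulae had 0 and 0 (all peaks 0.539% and 0.108%), with 3 and 6. In *Pou5f1*-KO early ICM 8 members were lower (all peaks 5.43%), namely 3 at *Fgf4*, 4 at *Etv5* and 1 at *Dusp6*, and 4 were higher (2.753%), namely 3 at *Fgfr2* and 1 at *Fgfr1*. KO and Ctrl did not overlap at 7 of the 8 (80.3% of all lower calls of the series) and 2 of the 4 (68.8% of all higher calls). In the same early ICM libraries the mean rlog of the epiblast marker peaks other than *Fgf4* was 4.08 to 4.47 in Ctrl and 3.23 to 3.47 in *Pou5f1*-KO, and 9 of these 23 peaks were called lower and 0 higher, a part that was not tested. With the replicate pairs as a block the late morula counts stayed at 0 and 0, and the early ICM counts were 12 and 7. The peaks added in early ICM by the block, all but the first chosen after their values were seen, were *Fgf4* +6.0 kb (−0.72), *Spry2* +3.5 kb (−1.03) and *Etv5* +26.4 kb (−1.05) and +3.3 kb (−1.10), with block adjusted p-values of 0.0292 to 0.0458, and *Fgfr1* −15.2 kb (0.92) and *Fgfr2* +96.3 kb (1.01) and +42.1 kb (1.07), with 0.00809 to 0.0416. After quantile normalization the early ICM counts were 7 and 2, and the higher count was 1 with an absolute difference of at least 1 required, 1 with the eBayes step without its trend and 2 within 10 kb of a gene. Of the calls without the block 6 of the 8 lower and 0 of the 4 higher were kept in every alternative. The 4 higher calls fell to 0 without Ctrl replicate 2, to 1 without KO replicate 2, Ctrl replicate 3 or KO replicate 4, and to 2 without Ctrl replicate 4. In *Sox2*-KO early ICM 1 member was lower (all peaks 1.91%), the −3.3 kb peak of *Fgf4*, and 0 were higher by limma (0.238%), with 6 and 7 members at an unadjusted p under 0.05. That call was lost without Ctrl replicate 1 or 4 or KO replicate 2 or 3 (−1.55 to −1.38) and when only the libraries compared were fitted (adjusted p = 0.0668). The marker peaks had 3.79 to 4.08 in *Sox2* Ctrl and 3.58 to 3.96 in *Sox2*-KO early ICM, with 1 of the 23 called lower. Without KO replicate 3 or Ctrl replicate 4, 1 member was called higher. The change of the knockout effect from early to late ICM passed at 0 members in the *Pou5f1* line (limma, all peaks 0.00% lower and 0.00% higher), with 3 and 6 members at an unadjusted p under 0.05, and at 0 in the *Sox2* line (0.0164% and 0.00262%), with 8 and 6.

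*Fgf4* lost open chromatin at peaks across the locus in both knockouts. The gene (chr7:144847367-144865243, plus strand) encodes the FGF ligand of the epiblast, and its main transcript starts at 144861386. Peaks were taken from chr7:144841000-144886000, around this transcript. A second annotated transcript starts further upstream, so the peaks between −9.7 and −0.1 kb lie in its intron. In *Pou5f1*-KO late ICM 7 of the 15 peaks were lower and 0 higher, with a median difference of −0.87, and in *Sox2*-KO 10 were lower and 0 higher, with a median of −1.29. The mean rlog over the 15 peaks was 3.71 ± 0.22 (SD, n = 4) in *Pou5f1* Ctrl and 2.76 ± 0.22 (SD, n = 4) in *Pou5f1*-KO late ICM, and 3.745 ± 0.19 (SD, n = 4) in *Sox2* Ctrl and 2.61 ± 0.14 (SD, n = 4) in *Sox2*-KO. The epiblast marker peaks other than those of *Fgf4* were lower in the same libraries, with the ranges given above, and their part was not tested. After quantile normalization 7 *Fgf4* peaks were lower in *Sox2*-KO, and leaving out single libraries gave 4 to 8.

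The −3.3 kb peak stood out at *Fgf4*. Its rlog in the 4 *Pou5f1* Ctrl late ICM libraries was 4.16, 4.43, 4.73 and 4.15, and in the 4 KO libraries 1.12, 0.74, 0.51 and 0.80. In the *Sox2* line it was 4.41, 4.97, 5.05 and 3.77 in Ctrl and 1.93, 1.08, 1.94 and 2.93 in KO. Every KO library lay below every Ctrl library in both lines, and the differences were −3.58 (standard error 0.42, adjusted p = 4.04e-11) in *Pou5f1*-KO and −2.58 (standard error 0.42, adjusted p = 1.67e-06) in *Sox2*-KO. In early ICM the *Pou5f1* Ctrl libraries had 3.65, 4.17, 4.30 and 3.97 and the KO libraries 1.08, 1.34, 2.10 and 1.95, a difference of −2.41 (adjusted p = 1.06e-05). *Sox2*-KO differed by −1.55 (adjusted p = 0.0224), a call lost without certain single libraries and when only the libraries compared were fitted, as given above. Before the blastocyst its rlog was 2.05 ± 0.76 (SD, n = 3) in Ctrl morula and 1.29 ± 0.64 (SD, n = 3) in Ctrl late morula. It gained 2.74 (standard error 0.45, adjusted p = 1.63e-06) from late morula to early ICM in Ctrl, and in *Pou5f1*-KO the values stayed at 1.86 ± 0.84 (SD, n = 3) and 1.62 ± 0.49 (SD, n = 4). The *Pou5f1*-KO effect itself was more negative in early ICM than in late morula by −2.98 (adjusted p = 0.0121), the only member for which that difference was called (lower calls over all peaks 0.291%, higher 0.0551%). With the replicate pairs as a block 3 members were called lower. The call was lost without late morula Ctrl replicate 1 or KO replicate 1 (−2.64 to −2.50), and without KO early ICM replicate 2 there were 2.

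**Figure D2:**
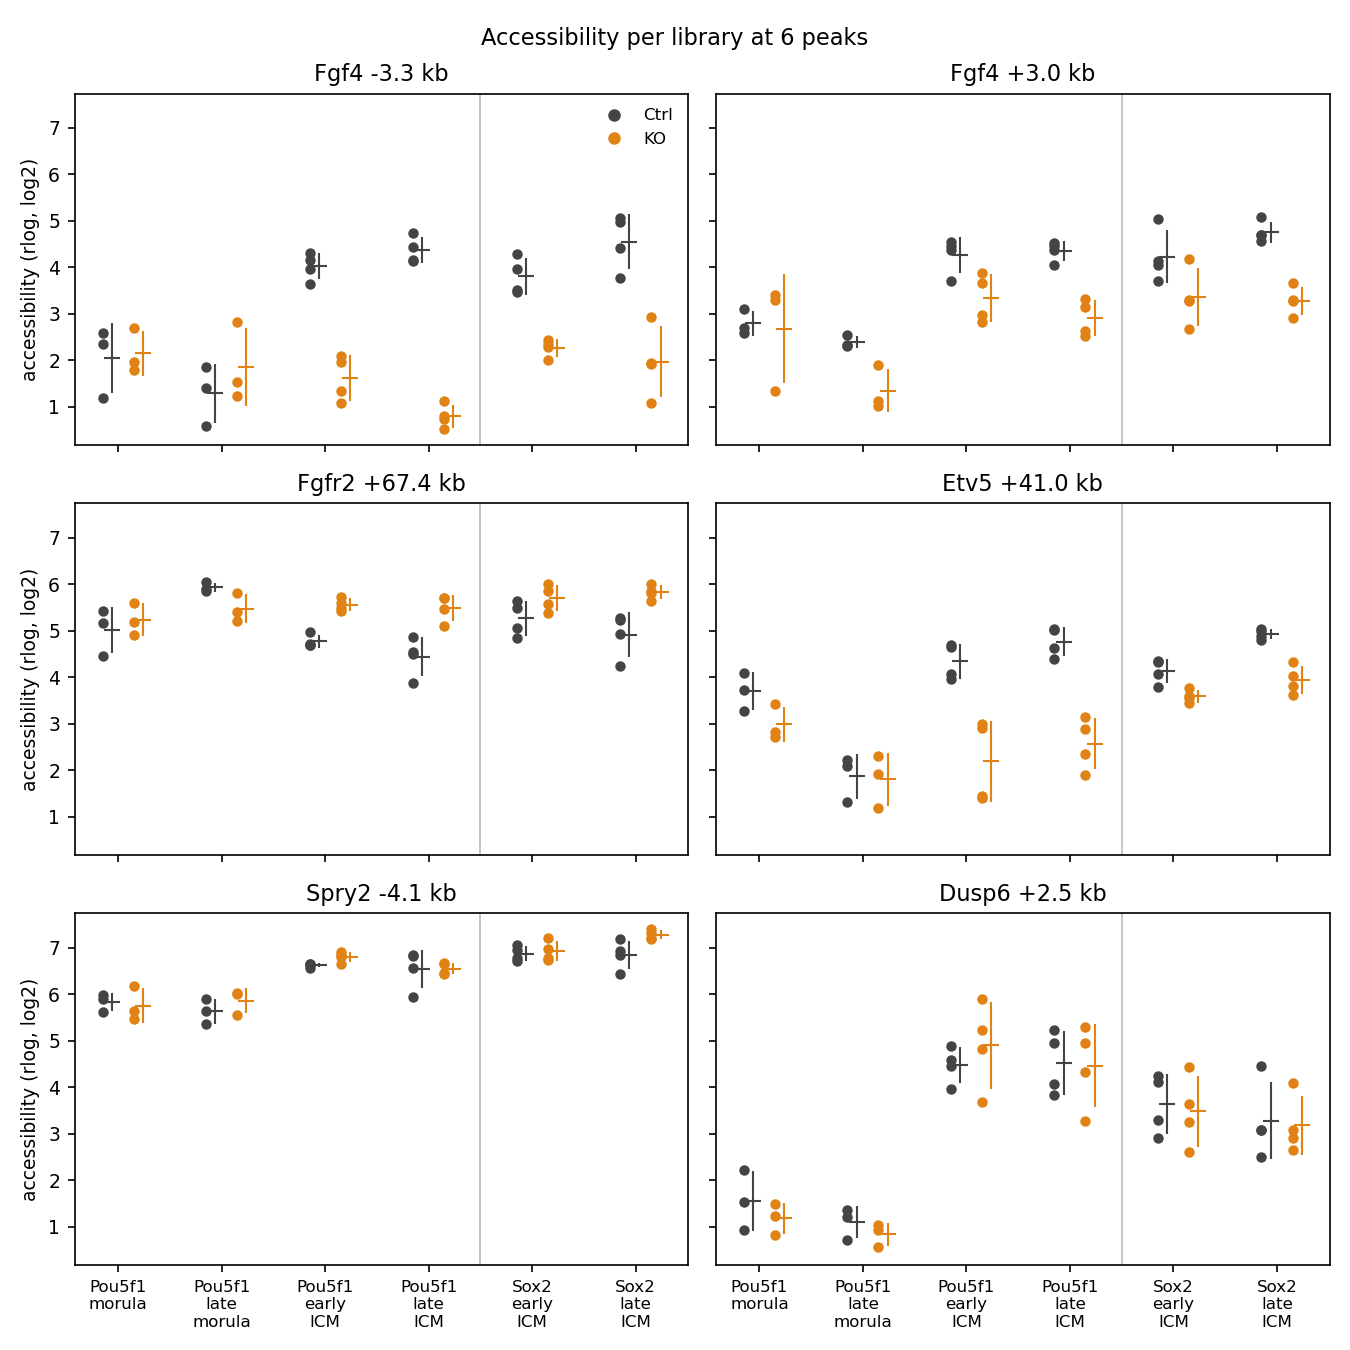
rlog (log2 scale, y axis) of 6 peaks in every library, by condition. Dots are libraries, dark for Ctrl and orange for KO, and the bar and whiskers are the mean ± SD. The *Fgf4* −3.3 kb peak rises in *Pou5f1* Ctrl ICMs and stays low in *Pou5f1*-KO. In the *Sox2* line, which has no morulae, KO ICMs lie below Ctrl at this peak. The *Etv5* +41.0 kb peak is lower in *Pou5f1*-KO than in Ctrl ICMs, and at the *Spry2* −4.1 kb peak *Pou5f1*-KO and Ctrl late ICM overlap.

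The peak at the *Fgf4* start site and the peak in the 3' part of the gene moved the same way. The −0.1 kb peak, 87 bp upstream of the main start, had 4.83, 5.98, 5.70 and 5.43 in *Pou5f1* Ctrl and 3.21, 3.99, 3.68 and 3.85 in *Pou5f1*-KO late ICM. The ranges did not overlap and the difference was −1.80 (standard error 0.43, adjusted p = 0.00111), and in *Sox2*-KO it was −1.29 (adjusted p = 0.0468), a call lost without Ctrl replicate 1, 2, 3 or 4 or KO replicate 1 or 3 (−1.39 to −0.98), under eBayes without the trend (adjusted p = 0.119), and when only stronger peaks were tested (adjusted p = 0.0591). The +3.0 kb peak lies in a UTR in the 3' part of the gene and holds the spaced composite word shown above. It had 4.38, 4.04, 4.47 and 4.51 in *Pou5f1* Ctrl and 3.31, 3.15, 2.53 and 2.63 in KO, and 4.69, 4.56, 5.08 and 4.70 in *Sox2* Ctrl and 2.92, 3.66, 3.27 and 3.29 in KO late ICM. KO lay below Ctrl without overlap in both lines, and the differences were −1.45 (standard error 0.39, adjusted p = 0.00375) and −1.48 (standard error 0.39, adjusted p = 0.00619).

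The other *Fgf4* peaks called in both knockouts lay on either side of the gene. In late ICM the −9.7 kb peak differed by −1.18 (adjusted p = 0.00422) in *Pou5f1*-KO and −1.03 (adjusted p = 0.0279) in *Sox2*-KO. The −7.2 kb peak differed by −2.06 (adjusted p = 0.000178) and −1.33 (adjusted p = 0.04). Downstream, the +6.0 kb peak differed by −1.18 (adjusted p = 0.00204) and −1.11 (adjusted p = 0.00844), and the +6.5 kb peak by −1.14 (adjusted p = 0.03) and −1.65 (adjusted p = 0.00208). In *Sox2*-KO the −9.7 kb call was lost without Ctrl replicate 1 or 3 or KO replicate 1, 3 or 4 (−1.04 to −0.88) and under eBayes without the trend (adjusted p = 0.0886). The −7.2 kb call was lost without Ctrl replicate 1 or 2 or KO replicate 1, 2 or 3 (−1.28 to −1.07) and after quantile normalization (adjusted p = 0.055), and the +6.0 kb call without KO replicate 3 (−0.94). In *Pou5f1*-KO the +6.5 kb call was lost without Ctrl replicate 2 or 3 or KO replicate 2, 3 or 4 (−1.14 to −0.95). The −2.5 kb peak, the strongest of the locus in *Pou5f1* Ctrl late ICM, had values of −0.76 (adjusted p = 0.0591) and −0.43 (adjusted p = 0.484), neither past the threshold, and the first passed when only the libraries compared were fitted (adjusted p = 0.0209). The 3 remaining lower calls of *Sox2*-KO, chosen after their values were seen, were at +7.2 kb (−1.50), +7.6 kb (−1.40) and +14.0 kb (−1.36), and *Pou5f1*-KO had −0.87, −0.13 and 0.15 there. These calls were lost, at +7.2 kb without Ctrl replicate 2 or KO replicate 2 or 4 (−1.38 to −1.17), at +7.6 kb without Ctrl replicate 1 or 3 or KO replicate 2 or 3 (−1.24 to −1.21) and after quantile normalization (adjusted p = 0.0704), and at +14.0 kb without Ctrl replicate 1, 2, 3 or 4 or KO replicate 2, 3 or 4 (−1.44 to −1.10) and after quantile normalization (adjusted p = 0.0796).

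**Figure D3:**
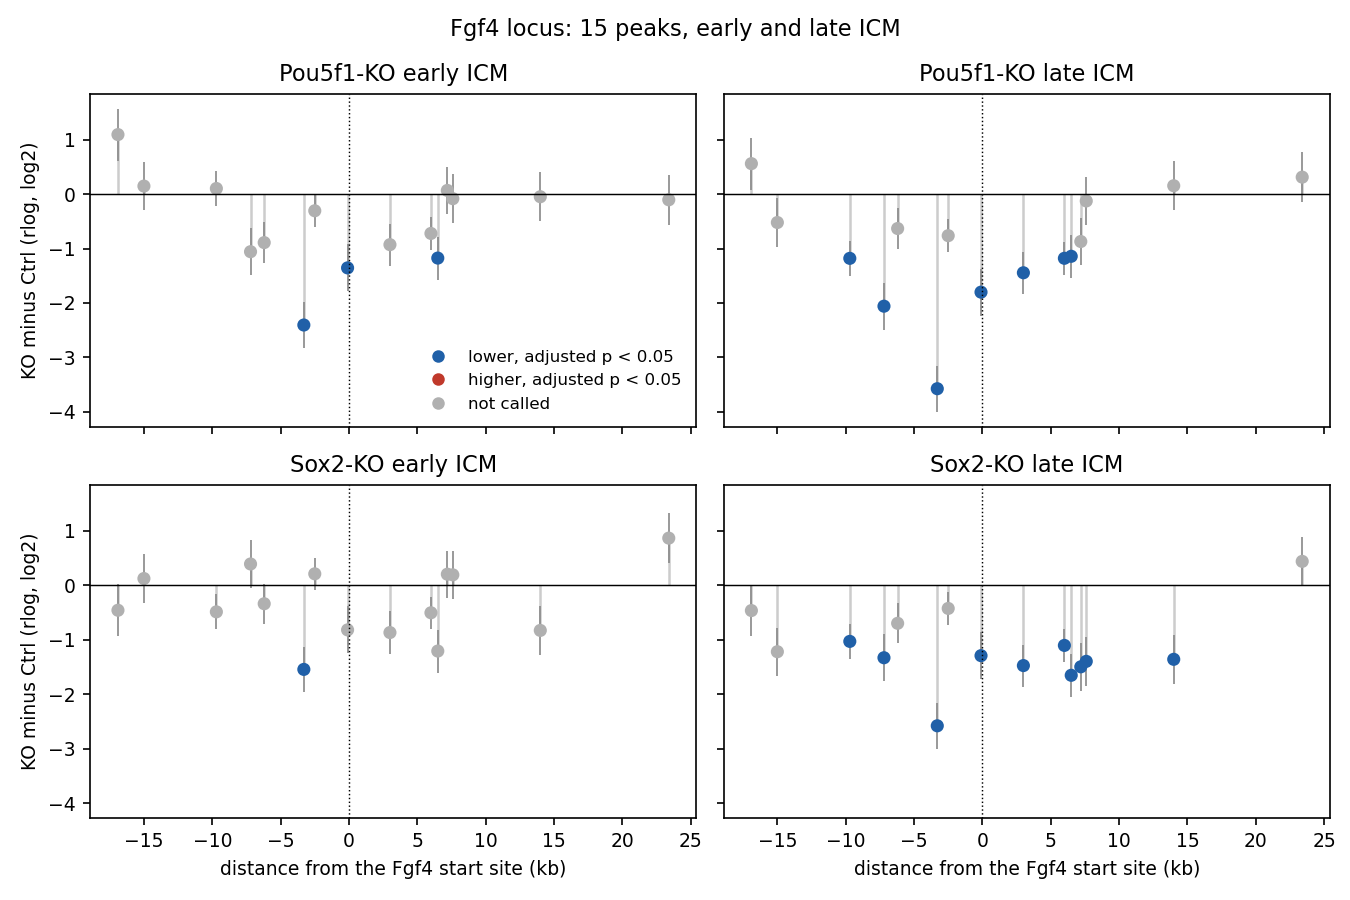
KO minus Ctrl difference in rlog (log2 scale, y axis) of the 15 *Fgf4* peaks against the distance of the peak centre from the main start site (kb, x axis), in early and late ICM of both knockouts, with bars of 1 standard error. The lowest point in all 4 panels is the −3.3 kb peak, and no peak was called higher.

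The receptor genes held most of the higher calls. At *Fgfr2* (chr7:130162451-133123350, minus strand), a receptor known from the primitive endoderm and the trophectoderm, peaks were taken from chr7:130142000-130287000, around the main transcript and not along the rest of the annotated gene. There 9 of 32 peaks were higher in *Pou5f1*-KO late ICM and 7 in *Sox2*-KO, with 0 lower in either by limma and 0 at an unadjusted p under 0.05. The medians were 0.59 and 0.69. Of the called peaks 4 were shared, at +66.6, +67.4, +68.8 and +112.8 kb, the first 3 close together in introns and the last beyond the 3' end of the gene. In late ICM the *Sox2*-KO count was less stable than that of *Pou5f1*-KO, since after quantile normalization 1 of the 7 was called, and leaving out single libraries gave 3 to 6. In *Pou5f1*-KO the count was 10 after quantile normalization and 6 to 11 without single libraries.

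The +67.4 kb peak of *Fgfr2* was high in all libraries. It had 3.87, 4.49, 4.55 and 4.87 in *Pou5f1* Ctrl and 5.70, 5.46, 5.72 and 5.11 in *Pou5f1*-KO late ICM, and 5.28, 4.24, 4.93 and 5.23 in *Sox2* Ctrl and 5.82, 5.63, 5.86 and 6.01 in *Sox2*-KO. The differences were 1.05 (standard error 0.27, adjusted p = 0.00199) and 0.91 (standard error 0.27, adjusted p = 0.0176), and in *Pou5f1*-KO early ICM 0.79 (adjusted p = 0.046), a call lost without any 1 of the 8 libraries (0.73 to 0.86), under eBayes without the trend (adjusted p = 0.106), and when only the libraries compared were fitted (adjusted p = 0.0907). KO libraries lay above Ctrl without overlap in late ICM of both lines. The +66.6 kb peak differed by 0.87 (adjusted p = 0.0278) and 1.34 (adjusted p = 0.000671), and the +68.8 kb peak by 0.80 (adjusted p = 0.00417) and 0.71 (adjusted p = 0.0257). At +112.8 kb, the first *Fgfr2* window shown above, Ctrl libraries had 6.05, 4.79, 5.08 and 5.68 and *Pou5f1*-KO libraries 6.51, 6.06, 6.09 and 6.22, a difference of 0.82 (adjusted p = 0.0071). The lowest KO library was next to the highest Ctrl library there. *Sox2*-KO differed by 0.72 (adjusted p = 0.0407). The *Pou5f1*-KO call at +112.8 kb was lost without Ctrl replicate 2 (0.62) and under eBayes without the trend (adjusted p = 0.0697), and that at +66.6 kb without KO replicate 1 or Ctrl replicate 2 (0.58 to 0.76) and under eBayes without the trend (adjusted p = 0.0629). The *Sox2*-KO call at +112.8 kb was lost without Ctrl replicate 1, 2, 3 or 4 or KO replicate 1, 3 or 4 (0.62 to 0.76), after quantile normalization (adjusted p = 0.119), and under eBayes without the trend (adjusted p = 0.2). At +68.8 kb it was lost without Ctrl replicate 1, 2 or 3 or KO replicate 3 (0.55 to 0.72), after quantile normalization (adjusted p = 0.0867), and under eBayes without the trend (adjusted p = 0.128). At +67.4 kb it was lost without Ctrl replicate 2 or KO replicate 4 (0.68 to 0.85), after quantile normalization (adjusted p = 0.0523), and under eBayes without the trend (adjusted p = 0.0576).

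Some *Fgfr2* peaks were called in 1 knockout. The −23.2 kb peak had 1.11, 0.84, −0.49 and −0.38 in *Pou5f1* Ctrl and 1.59, 1.55, 2.08 and 2.69 in *Pou5f1*-KO late ICM, a difference of 1.71 (standard error 0.39, adjusted p = 0.000664), beside 0.36 (adjusted p = 0.716) in *Sox2*-KO. The *Pou5f1* groups did not overlap. The +8.4 kb peak was higher in *Sox2*-KO by 0.85 (adjusted p = 0.0176) with 0.20 (adjusted p = 0.643) in *Pou5f1*-KO, a call lost without Ctrl replicate 2 or KO replicate 2 or 4 (0.69 to 0.80), after quantile normalization (adjusted p = 0.051), and under eBayes without the trend (adjusted p = 0.107). The difference between the 2 effects was not called at either (1.35 (adjusted p = 0.265) and −0.65 (adjusted p = 0.448)). The +3.2 kb peak, nearest to the main start site, had −0.30 (adjusted p = 0.716) and 0.05 (adjusted p = 0.975).

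**Figure D4:**
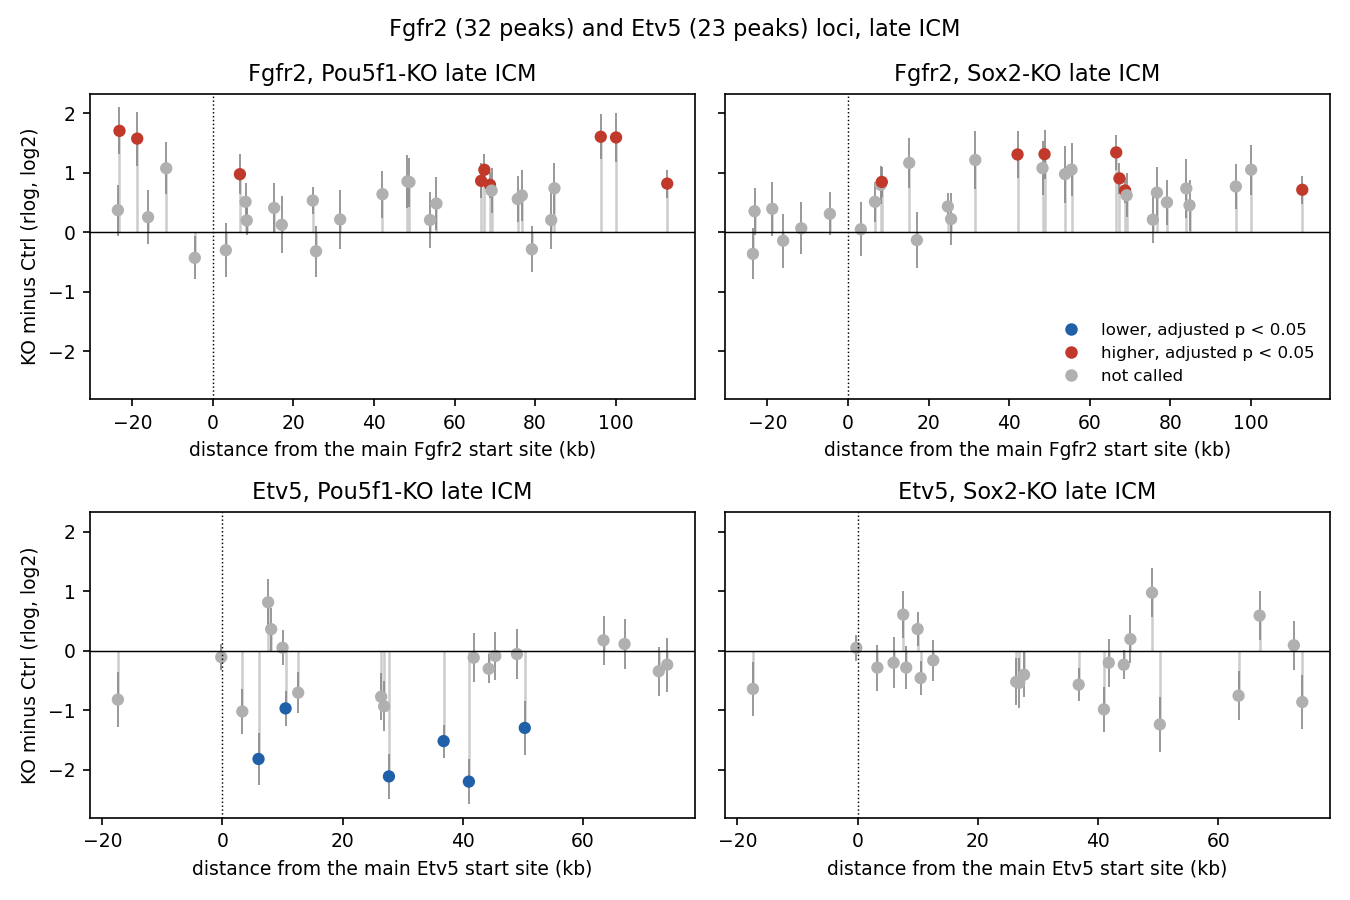
KO minus Ctrl difference in rlog (log2 scale, y axis) in late ICM against the distance of the peak centre from the main start site (kb, x axis) at *Fgfr2* and *Etv5*, for both knockouts, with bars of 1 standard error. Called *Fgfr2* peaks lie above 0 in both knockouts, and called *Etv5* peaks lie below 0 in *Pou5f1*-KO, with none called in *Sox2*-KO.

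*Fgfr1* (chr8:25513654-25575718, plus strand), which encodes a receptor known in both epiblast and primitive endoderm, had few calls. In *Pou5f1*-KO late ICM 2 of 21 peaks were lower (9.52%, all peaks 10.1%) and 3 higher (14.3%, all peaks 8.19%). Nothing particular to this locus is read from these counts. In *Sox2*-KO 0 were called in either direction by limma, with 2 lower and 1 higher at an unadjusted p under 0.05. The largest loss was in an intron at +26.3 kb, where *Pou5f1* Ctrl late ICM libraries had 4.20, 4.03, 3.97 and 4.60 and KO libraries 2.01, 2.09, 3.26 and 3.03. No KO library reached the Ctrl range. The difference was −1.60 (standard error 0.43, adjusted p = 0.00389), beside −1.05 (adjusted p = 0.133) in *Sox2*-KO. The peak at the start site, 48 bp from it, had 0.06 (adjusted p = 0.929) and 0.12 (adjusted p = 0.907). The strongest peak of the locus, at −3.5 kb, had −0.22 (adjusted p = 0.71) and 0.28 (adjusted p = 0.736). At +4.1 kb *Sox2*-KO had 1.31 (adjusted p = 0.0557), which passed when only the libraries compared were fitted (adjusted p = 0.0391) and with the replicate block (adjusted p = 0.0271), and *Pou5f1*-KO 0.13 (adjusted p = 0.888).

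The feedback inhibitors did not move as a group. *Spry2* (chr14:105891947-105896819, minus strand) encodes a Sprouty protein that restrains receptor signaling, and 0 of its 12 peaks were called in either knockout in late ICM by limma, with 1 lower and 2 higher at an unadjusted p under 0.05 in *Pou5f1*-KO and 0 and 1 in *Sox2*-KO. The strongest *Spry2* peak, at −4.1 kb, had 6.84, 5.95, 6.57 and 6.83 in *Pou5f1* Ctrl and 6.67, 6.66, 6.46 and 6.44 in *Pou5f1*-KO late ICM. These groups overlapped, while in the *Sox2* line Ctrl ranged 6.45 to 7.18 and KO 7.18 to 7.40. The differences were 0.01 (standard error 0.19, adjusted p = 0.979) in *Pou5f1*-KO and 0.43 (standard error 0.19, adjusted p = 0.191) in *Sox2*-KO. The −0.6 kb peak, nearest to the start, had −0.28 (adjusted p = 0.575) and 0.03 (adjusted p = 0.976). At −14.6 kb *Pou5f1*-KO had 1.18 (adjusted p = 0.0652), which passed without KO replicate 1 or Ctrl replicate 4 (1.40 to 1.44) and with the replicate block (adjusted p = 0.036), and *Sox2*-KO had 0.05 (adjusted p = 0.975).

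*Spry4* (minus strand of chromosome 18, gene interval 38586247 to 38601415) encodes another Sprouty protein. Of its 17 peaks 5 were lower and 1 higher in *Pou5f1*-KO late ICM, and 2 lower and 0 higher in *Sox2*-KO. The +17.2 kb peak, just past the 3' end, had 2.74, 3.80, 3.56 and 3.78 in *Pou5f1* Ctrl and 1.55, 2.27, 1.76 and 0.71 in *Pou5f1*-KO. No KO library reached the Ctrl range. The difference was −1.90 (standard error 0.43, adjusted p = 0.000598), against 0.29 (adjusted p = 0.806) in *Sox2*-KO, and the difference between the 2 effects was −2.19 (adjusted p = 0.0552). The peaks called in both knockouts were at −1.4 kb, with −1.26 (adjusted p = 0.0255) and −1.54 (adjusted p = 0.0108), and in the intron at +8.3 kb, with −1.22 (adjusted p = 0.0388) and −1.43 (adjusted p = 0.0248). In *Pou5f1*-KO the −1.4 kb call was lost without Ctrl replicate 2 or KO replicate 3 or 4 (−1.22 to −1.14), and the +8.3 kb call without Ctrl replicate 1, 2 or 3 or KO replicate 1, 3 or 4 (−1.24 to −0.90), after quantile normalization (adjusted p = 0.0681), and when only the libraries compared were fitted (adjusted p = 0.0646). In *Sox2*-KO the −1.4 kb call was lost without Ctrl replicate 1 or 2 or KO replicate 3 (−1.39 to −1.25), and the +8.3 kb call without Ctrl replicate 1 or 2 or KO replicate 3 or 4 (−1.40 to −1.25). The peak at the start site, at −0.2 kb in an exon of the neighbouring AC133601.1 transcript, was lower in *Pou5f1*-KO by −1.13 (adjusted p = 0.0488), a call lost without Ctrl replicate 1, 2 or 4 or KO replicate 2 or 3 (−1.19 to −0.81), after quantile normalization (adjusted p = 0.0687), and when only the libraries compared were fitted (adjusted p = 0.0553). It had −0.78 (adjusted p = 0.314) in *Sox2*-KO. The strongest peak, at +30.8 kb, had −0.47 (adjusted p = 0.335) and −0.40 (adjusted p = 0.559).

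*Dusp6* (chr10:99263231-99267489, plus strand), the ERK phosphatase gene, had 1 of 10 peaks higher in *Pou5f1*-KO and 2 in *Sox2*-KO late ICM, and 0 lower in either by limma or at an unadjusted p under 0.05. The +15.2 kb peak, the last window shown above, lies in an intron of the transcript Gm48089. It had 2.65, 2.62, 3.24 and 3.03 in *Pou5f1* Ctrl and 4.24, 3.77, 4.03 and 4.17 in *Pou5f1*-KO late ICM, and 3.15, 3.71, 2.746 and 2.97 in *Sox2* Ctrl and 4.72, 4.79, 5.39 and 3.84 in *Sox2*-KO. KO lay above Ctrl without overlap in both lines. The differences were 1.17 (standard error 0.37, adjusted p = 0.0165) and 1.54 (standard error 0.37, adjusted p = 0.00237), the former lost without Ctrl replicate 2 (1.08). The peak next to the *Dusp6* start site, 85 bp upstream, had −0.24 (adjusted p = 0.557) and 0.09 (adjusted p = 0.905). Of peaks chosen after their values were seen, the +6.6 kb peak was higher in *Sox2*-KO by 1.68 (adjusted p = 0.0082), and the −19.0 kb peak was lower in *Pou5f1*-KO early ICM by −1.04 (adjusted p = 0.00828) with −0.20 (adjusted p = 0.692) in late ICM.

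At the ETS factor genes the late ICM calls came from *Pou5f1*-KO. At *Etv5* (chr16:22381309-22439719, minus strand), 6 of 23 peaks were lower in *Pou5f1*-KO late ICM and 0 higher, and 0 were called in *Sox2*-KO by limma, with 3 lower and 1 higher at an unadjusted p under 0.05. The 6 peaks lie in introns, and 3 of them hold the OCT-SOX words shown above. The medians over the 23 peaks were −0.34 and −0.28. The +41.0 kb peak had 5.04, 4.64, 4.39 and 5.02 in *Pou5f1* Ctrl and 2.34, 2.89, 3.14 and 1.91 in *Pou5f1*-KO late ICM, and 5.00, 5.05, 4.81 and 4.88 in *Sox2* Ctrl and 3.81, 4.33, 3.62 and 4.04 in *Sox2*-KO. KO lay below Ctrl without overlap in both lines, and the differences were −2.20 (standard error 0.38, adjusted p = 3.06e-06) and −0.98 (standard error 0.38, adjusted p = 0.096). The second passed when only the libraries compared were fitted (adjusted p = 0.0167). In *Pou5f1*-KO early ICM the difference was −2.15 (adjusted p = 1.09e-05). The difference between the 2 late ICM effects was not called there (−1.22 (adjusted p = 0.302)).

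The next *Etv5* peaks, chosen after their values were seen, had the same direction in *Pou5f1*-KO. At +27.7 kb the Ctrl late ICM libraries had 4.48, 5.67, 5.51 and 5.63 and the *Pou5f1*-KO libraries 3.42, 2.80, 3.55 and 3.07, a difference of −2.11 (standard error 0.38, adjusted p = 8.88e-06), with −0.40 (adjusted p = 0.648) in *Sox2*-KO. At +36.8 kb the values were 6.22, 5.62, 5.76 and 6.02 and 4.28, 4.26, 4.05 and 4.96, a difference of −1.52 (standard error 0.28, adjusted p = 1.33e-05), with −0.57 (adjusted p = 0.239) in *Sox2*-KO. At both peaks the *Pou5f1*-KO libraries lay below Ctrl without overlap, and in the *Sox2* line the groups overlapped at +27.7 kb and did not at +36.8 kb. At +6.0 kb *Pou5f1*-KO differed by −1.82 (adjusted p = 0.000954) in late ICM and −1.66 (adjusted p = 0.00578) in early ICM, and *Sox2*-KO by −0.20 (adjusted p = 0.878) and 0.86 (adjusted p = 0.424). There the early ICM effects differed from each other by −2.51 (adjusted p = 0.0222), the single member called in that test. The call was lost without *Pou5f1* Ctrl early ICM replicate 2 or *Sox2* Ctrl early ICM replicate 4 (−2.32 to −2.06), and when only the libraries compared were fitted (adjusted p = 0.0683). The +10.5 kb peak fell by 0.97 in late ICM of *Pou5f1*-KO (adjusted p = 0.0105), a call lost without KO replicate 4 (−0.84). The +50.3 kb peak was lower in *Pou5f1*-KO by −1.30 (adjusted p = 0.0336), lost without Ctrl replicate 1, 2 or 3 or KO replicate 1 or 3 (−1.30 to −1.06), and had −1.24 (adjusted p = 0.0806) in *Sox2*-KO, which passed without KO replicate 3 (−1.62). The strong peak next to the start site, 172 bp upstream, had −0.11 (adjusted p = 0.805) and 0.05 (adjusted p = 0.947).

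*Etv4* (chr11:101769742-101785371, minus strand) had 5 peaks. The intronic +12.7 kb peak had 4.66, 4.55, 5.15 and 4.78 in *Pou5f1* Ctrl and 3.67, 3.18, 4.58 and 3.84 in *Pou5f1*-KO late ICM. The groups overlapped, with 1 KO library inside the Ctrl range. The difference was −0.97 (standard error 0.33, adjusted p = 0.0273), lost without KO replicate 1 or 2 or Ctrl replicate 3 or 4 (−0.97 to −0.75), and *Sox2*-KO had −0.11 (adjusted p = 0.922). The start site peak had −0.47 (adjusted p = 0.346) and −0.37 (adjusted p = 0.613), and the −1.6 kb peak −0.83 (adjusted p = 0.193) and −0.75 (adjusted p = 0.375).

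The 2 knockouts, which share no library, had 9 lower calls in common in late ICM, 7 at *Fgf4* and 2 at *Spry4*. These were 42.9% of the *Pou5f1*-KO and 75% of the *Sox2*-KO lower calls, beside 33.9% and 70.2% over all peaks. The 5 higher calls in common, 4 at *Fgfr2* and 1 at *Dusp6*, were 35.7% and 55.6% of the higher calls, beside 12.4% and 37.5%. No member was called in opposite directions. The difference between the effects (*Pou5f1*-KO minus *Sox2*-KO) was called at 1 member in early ICM, lower, and 0 higher (all peaks 0.372% and 0.308%), and at 0 in late ICM by limma (0.554% and 0.351%), with 8 and 5 members at an unadjusted p under 0.05. In late ICM 2 members were called lower without *Pou5f1* Ctrl replicate 1, and 1 without *Pou5f1*-KO replicate 2, *Sox2* Ctrl replicate 3 or *Sox2*-KO replicate 4. So a peak called in 1 knockout, such as those of *Etv5*, was not shown to differ between the knockouts in late ICM.

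In *Pou5f1* Ctrl embryos more members opened than closed from late morula to early ICM. Of the 135 members 45 were higher in early ICM (all peaks 14.7%) and 14 lower (15.0%), and the median difference was 0.54 against −0.0435 over all peaks. Of these 27 of the 45 and 6 of the 14 were kept in every alternative. Without Ctrl late morula replicate 3 the lower count was 9. *Etv5* had 13 higher and 0 lower, *Fgf4* and *Spry2* 8 and 0 each, *Dusp6* 4 and 1, *Etv4* 2 and 0, *Fgfr2* 5 and 6, *Fgfr1* 3 and 4, and *Spry4* 2 and 3. The stage and the treatments (culture, MEK inhibitor and immunosurgery) cannot be told apart in this step, and the mean rlog of the epiblast marker peaks other than *Fgf4* was 3.07 to 3.24 in late morula and 4.08 to 4.47 in early ICM, a part that was not tested. The largest opening, chosen after its values were seen, was at *Dusp6* +2.5 kb, where Ctrl late morula libraries had 1.21, 0.72 and 1.37 and early ICM libraries 3.96, 4.59, 4.89 and 4.46, a difference of 3.37 (standard error 0.46, adjusted p = 1.45e-08). The groups did not overlap, and in late ICM this peak had −0.06 (adjusted p = 0.949) in *Pou5f1*-KO and −0.10 (adjusted p = 0.946) in *Sox2*-KO. The *Fgf4* start site peak opened by 3.13 (adjusted p = 1.44e-07), the *Etv5* +41.0 kb peak by 2.47 (adjusted p = 1.36e-06) and the *Spry2* −4.1 kb peak by 0.99 (adjusted p = 0.000142).

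The stage step and the knockouts, which share no library, are set side by side here. Of the 45 opened members 15 were lower in *Pou5f1*-KO late ICM, 33.3% beside 36.1% of all opened peaks, and these hold all 7 lower calls of *Fgf4* and all 6 of *Etv5*. In *Sox2*-KO 7 were lower, 15.6% beside 19.9%, all at *Fgf4*. At *Spry2* 0 of the 8 opened peaks were lower in either knockout. Of the 14 members that closed, 8 were higher in *Pou5f1*-KO late ICM, 57.1% beside 19.2% of all closed peaks, of which 5 were at *Fgfr2*, and 2 were higher in *Sox2*-KO, 14.3% beside 5.56%. The *Fgfr2* +67.4 kb peak closed by −1.16 (adjusted p = 0.00109) and the +66.6 kb peak by −0.87 (adjusted p = 0.0308), the latter lost without late morula Ctrl replicate 2 or 3 or early ICM Ctrl replicate 2 or 4 (−0.94 to −0.70) and under eBayes without the trend (adjusted p = 0.0632).

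**Figure D5:**
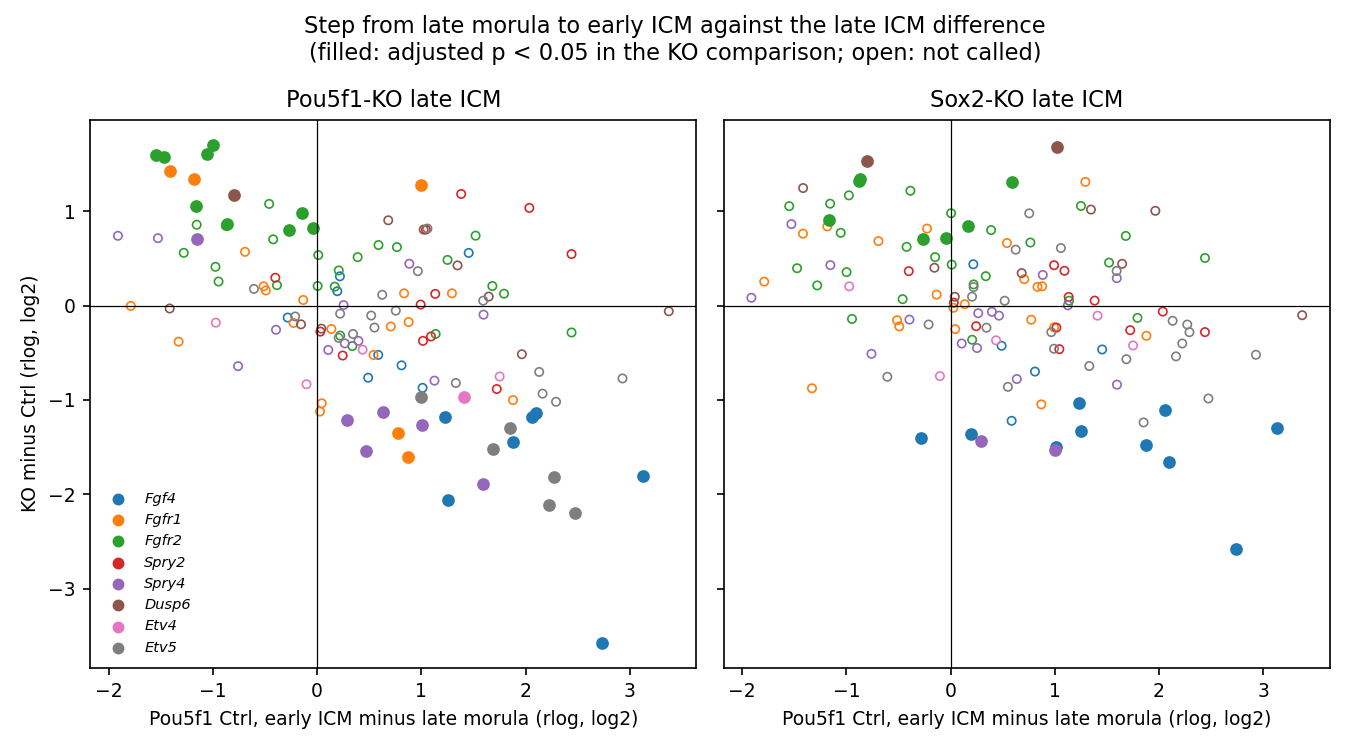
Change of the 135 peaks from late morula to early ICM in *Pou5f1* Ctrl embryos (difference in rlog, x axis) against the KO minus Ctrl difference in late ICM (rlog, y axis), for both knockouts, coloured by locus. Filled points were called in the KO comparison. Filled *Fgf4* points lie below 0 on the y axis in both panels, and all *Spry2* points are open.

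The other steps in Ctrl embryos moved few members. From morula to late morula 7 were lower (all peaks 2.79%), 3 at *Fgf4* and 4 at *Etv5*, and 4 were higher (3.65%), at *Dusp6* (2), *Fgfr2* and *Spry2*. Without late morula replicate 1 these counts fell to 1 and 2, and the higher count fell to 2 without morula replicate 1 or late morula replicate 2 and to 1 without morula replicate 2 or late morula replicate 3. From early to late ICM 0 members were called in *Pou5f1* Ctrl by limma (all peaks 0.180% lower and 0.0787% higher), with 4 and 5 at an unadjusted p under 0.05, and 0 in *Sox2* Ctrl (0.121% and 0.474%), with 6 and 16. In *Pou5f1* Ctrl 1 member was called lower without early ICM replicate 3 or late ICM replicate 1.

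The members lie mostly away from start sites, 77 in introns, 46 between genes, 8 in exons and 4 in UTRs, with a GC content of 37 to 78.5% (median 51.5%). Of all members 10 (7.41%) lie within 100 bp of an annotated start site, beside 7.77% of all peaks. Other coding genes in the windows are *Fgf3*, *Letm2* and *Dhx8*, so a peak may serve a neighbour. The windows were searched on both strands for 11 words. The OCT-SOX word is CNTTGTN joined to ATGCAAAT with at most 3 mismatches, and the spaced form has 3 bases between these parts. They overlap the OCT word ATGCAAAT and in part the SOX word ATTGTT. OCT-SOX was in 5.93% of members and 6.8% of all peaks, spaced OCT-SOX in 7.41% and 5.46%, OCT in 2.22% and 2.39% and SOX in 5.19% and 8.74%. The GATA word AGATAA was in 16.3% and 17.45%, TEAD (CATTCC) in 25.93% and 18.88%, ETS (CCGGAA) in 6.67% and 5.17% and AP-1 (TGANTCA) in 5.19% and 7.75%. KLF (GGGNGTGG) was in 16.3% and 20.62%, TFAP2 (GCCNNNGGC) in 11.85% and 11.0% and ESRRB (AAGGTCA) in 9.63% and 9.66%.

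Of the 8 members with OCT-SOX, 3 were lower in *Pou5f1*-KO late ICM, 37.5% beside 36.4% of all peaks with the word, and these are the 3 *Etv5* windows shown above. In *Sox2*-KO 0 of the 8 were lower by limma, beside 24.4%. Higher were 1 of the 8 in *Pou5f1*-KO, 12.5% beside 4.53%, and 0 in *Sox2*-KO by limma, beside 2.24%. Of the 22 members with GATA, 8 were higher in *Pou5f1*-KO late ICM, 36.4% beside 18.3% of all peaks with the word, and 3 in *Sox2*-KO, 13.6% beside 5.78%. None was lower in either (all peaks 7.20% and 4.41%). The 8 are 4 peaks of *Fgfr2*, 2 of *Fgfr1*, 1 of *Spry4* and the *Dusp6* window shown above. Of the 10 members with spaced OCT-SOX, 4 were lower in *Pou5f1*-KO, 40% beside 19.7%, and 1 in *Sox2*-KO, 10% beside 10.4%. Higher were 2 of the 10 in *Pou5f1*-KO, 20% beside 6.93%, and 0 in *Sox2*-KO by limma, beside 3.1%. Of the 13 members with ESRRB, 4 were lower in *Pou5f1*-KO, 30.8% beside 15.3%, and 3 in *Sox2*-KO, 23.1% beside 6.99%. These are *Fgf4* −3.3 and −7.2 kb, *Spry4* −1.4 kb and, in *Pou5f1*-KO, *Etv5* +36.8 kb. Of the 22 members with KLF, 6 were lower in *Pou5f1*-KO, 27.3% beside 8.07%, and 3 in *Sox2*-KO, 13.6% beside 3.50%. Of the 16 with TFAP2, 4 were lower in *Pou5f1*-KO, 25% beside 8.26%, and 2 in *Sox2*-KO, 12.5% beside 3.50%. Higher in *Pou5f1*-KO were 0 members with ESRRB, 1 with KLF and 1 with TFAP2 (all peaks 6.99%, 6.71% and 8.6%). In *Sox2*-KO 1, 1 and 2 were higher (all peaks 3.72%, 1.97% and 1.78%). Of the 35 with TEAD, 5 were lower and 6 higher in *Pou5f1*-KO, 14.3% and 17.1% beside 9.45% and 13.1%, and 3 and 2 in *Sox2*-KO, 8.57% and 5.71% beside 4.48% and 4.87%. The other words were in 3 to 9 members each. Lower in *Pou5f1*-KO were 1 of 3 members with OCT (all peaks 30.4%), 1 of 7 with SOX (19.1%), 1 of 7 with AP-1 (12.9%) and 0 of 9 with ETS (8.82%), and in *Sox2*-KO 0 members with any of these were (10.3%, 12.9%, 5.89% and 4.28%). The members with a word overlap between words, and no share was tested. A match describes letters in the window and not binding.

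The wider pathway was read from a list of 41 other genes, with 552 peaks within 20 kb that are not members. In *Pou5f1*-KO late ICM 51 of these were lower, 9.24% beside 10.1% of all peaks, and 19 higher, 3.44% beside 8.19%, at 17 and 13 genes. In *Sox2*-KO 22 were lower, 3.99% beside 4.88%, and 15 higher, 2.72% beside 2.71%, at 11 and 9 genes. The medians were −0.18 and 0.0145. By role, the kinases had 16 lower and 0 higher of 117 peaks in *Pou5f1*-KO, of which *Map2k1*, which encodes MEK1, held 6, and in *Sox2*-KO 2 were lower and 0 higher. The inhibitors had 13 lower and 5 higher of 103 peaks in *Pou5f1*-KO, 6 of the lower at *Il17rd*, and 5 and 3 in *Sox2*-KO. The adaptors had 12 and 4 of 173, and 7 and 5. The target genes had 8 and 4 of 90, and 5 and 5, and of these *Etv1*, the ETS factor related to *Etv4* and *Etv5*, had 4 of 8 peaks lower in each knockout, with differences down to −4.05 and −3.72. The other receptors had 0 lower and 4 higher of 30 peaks in *Pou5f1*-KO, all 4 at *Fgfr4*, and 0 and 0 in *Sox2*-KO. The other ligands had 2 and 2 of 39, and 3 and 2, and *Fgf3*, the neighbour of *Fgf4*, had 0 of its 4 remaining peaks called in either.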

How the data were processed

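The deposited log2 values are rlog values, which the authors made with DESeq2 from Tn5 insertions in 152393 peaks of 200 bp over all 44 libraries. Per the submitters' processing notes and the study's methods, reads were trimmed, mapped to mm10 with Bowtie2, deduplicated with Picard, filtered, shifted to the insertion site and called with MACS2, and insertions were counted with bedtools. Versions are not given in the sources used here. The methods tested insertion counts, which were not used here, so limma was run on the rlog values.

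Members and lists were chosen with earlier results of these data known. Peaks overlapping a fixed GRCm38 interval for each gene, extended by 20 kb, were taken and annotated with GENCODE vM21. limma 3.58.1 in R 4.3.3 (lmFit, contrasts.fit, eBayes with trend) was fitted to all libraries with a mean per condition (32 residual degrees of freedom, median residual SD 0.589), without a filter, two-sided, with Benjamini-Hochberg adjustment over all peaks and a threshold of 0.05. Values were handled with Python 3.11.15, numpy 2.4.6 and pandas 2.3.3, and figures drawn with matplotlib 3.10.9. Replicates are separate libraries of pooled embryos, so p-values measure the spread between libraries. No libraries were identical.

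For each locus the text names the peak nearest to the main start site, the peak of lowest adjusted p for each knockout in late ICM, the strongest peak in *Pou5f1* Ctrl late ICM, and every peak called the same way in both knockouts, 35 peaks in all. Other peaks are marked as chosen after their values were seen. Same-numbered KO and Ctrl libraries deviated together in all pairs of *Pou5f1* late morula (r 0.109 to 0.192) and early ICM (0.121 to 0.162), so the counts with the pairs as a block, and the peaks they add, are given there. The correlations of the other groups, some of them higher, and their block counts are given at the end.

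Alternatives were eBayes without the trend, an absolute difference of at least 1, members within 10 kb, testing just the stronger peaks (mean rlog at least the median), quantile normalization, the replicate block, only the libraries compared, and each library left out in turn.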

Additional observations from a re-analysis of the deposited data

Results flagged for a closer look

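Of 280 groups of 4 libraries at the named peaks, 16 held 1 library far from the other 3 by Dixon's test, where chance gives about 1 in 20. In *Pou5f1* Ctrl early ICM these were the *Fgf4* −7.2 kb peak (replicate 2 at 3.588, the others 3.032 to 3.096), the *Fgfr1* −3.5 kb peak (replicate 3 at 5.534, the others 5.577 to 5.583), the *Fgfr2* +67.4 kb peak (replicate 4 at 4.981, the others 4.698 to 4.717), the *Fgfr2* −23.2 kb peak (replicate 1 at 0.726, the others −0.370 to −0.280) and the *Spry4* −0.2 kb peak (replicate 2 at 2.06, the others 2.961 to 3.108). In *Pou5f1* late ICM it was the *Fgfr2* +3.2 kb peak, with replicate 1 at 1.519 in Ctrl (the others 3.466 to 3.79) and at 1.217 in KO (the others 3.324 to 3.39). In *Sox2* Ctrl it was the *Fgfr1* +26.3 kb peak, with replicate 3 at 1.759 in early ICM (the others 3.064 to 3.242) and replicate 4 at 3.053 in late ICM (the others 3.775 to 3.798). In *Sox2*-KO early ICM replicate 4 was low at the *Fgf4* −9.7 kb peak (3.263, the others 5.092 to 5.152), the *Etv4* +12.7 kb peak (3.999, the others 4.72 to 4.851) and the *Etv5* +50.3 kb peak (0.71, the others 1.784 to 1.922). In *Sox2*-KO late ICM the *Spry2* −14.6 kb peak was high in replicate 4 (2.818, the others 1.731 to 1.766), the *Spry4* −0.2 kb peak high in replicate 1 (2.225, the others 1.391 to 1.466), the *Etv4* +12.7 kb peak low in replicate 2 (4.858, the others 5.231 to 5.251) and the *Etv4* −1.6 kb peak low in replicate 1 (2.64, the others 3.021 to 3.078).

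The knockout effect differed between groups at 2 members by the limma test of the difference, and neither call was kept in all alternatives. At *Etv5* +6.0 kb the *Pou5f1*-KO effect was lower than the *Sox2*-KO effect in early ICM by −2.512 (adjusted p = 0.0222, lower calls over all peaks 0.372%). It was lost without *Pou5f1* Ctrl early ICM replicate 2 or *Sox2* Ctrl early ICM replicate 4, and when only the libraries compared were fitted. At *Fgf4* −3.3 kb the *Pou5f1*-KO effect was lower in early ICM than in late morula by −2.982 (adjusted p = 0.0121, lower calls over all peaks 0.291%). This call was lost without late morula Ctrl replicate 1 or KO replicate 1.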

How the results depend on the processing

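Counts of called members are given as lower and higher. Depth is unknown, so peaks that rest on few insertions cannot be set apart, and rlog values understate their differences. Over all results and alternatives, 448 counts stayed within 1.5 times the reported count, 27 rose past it and 37 fell below it, and the differences at single peaks (the named peaks in late ICM and every member called in an ICM knockout comparison) kept direction and side of the threshold in 1097 cases, gained the call in 9, lost it in 186 and changed sign in 26. The lost calls were 63 in *Pou5f1*-KO late ICM, 80 in *Sox2*-KO late ICM, 38 in *Pou5f1*-KO early ICM and 5 in *Sox2*-KO early ICM. The causes were not tested.

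An absolute difference of at least 1 left 1 higher call in *Pou5f1*-KO early ICM, 9 in *Pou5f1*-KO late ICM and 5 in *Sox2*-KO late ICM. Within 10 kb the higher calls of the *Pou5f1*-KO were 2 in early and 9 in late ICM. eBayes without the trend left 1 higher call in *Pou5f1*-KO early ICM and 3 in *Sox2*-KO late ICM, and gave 1 higher in *Sox2* Ctrl late against early ICM and 1 lower in the late ICM difference between knockouts. Testing just the stronger peaks gave 1 lower call in *Pou5f1*-KO morula. Quantile normalization gave 1 lower in *Pou5f1*-KO morula, 2 higher in *Pou5f1*-KO early ICM, 3 higher in *Sox2*-KO late ICM, 7 higher in Ctrl late morula against morula, and 1 lower and 1 higher in *Sox2* Ctrl late against early ICM. Fitting only the libraries compared gave 0 lower in *Sox2*-KO early ICM, 1 higher in *Pou5f1* Ctrl late against early ICM, 0 lower in the early and 2 lower in the late ICM difference between knockouts.

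The replicate block gave 1 and 1 in *Pou5f1*-KO morula, 12 and 7 in *Pou5f1*-KO early ICM, 2 and 1 in *Sox2*-KO early ICM, 1 lower in *Pou5f1* Ctrl late against early ICM, 2 higher in *Sox2* Ctrl late against early ICM, 2 lower in the late ICM difference between knockouts and 3 lower in the *Pou5f1*-KO effect of early ICM minus late morula. In *Pou5f1*-KO late ICM it gave 27 and 17 and in *Sox2*-KO late ICM 13 and 11. In the groups other than *Pou5f1* late morula and early ICM the correlations of same-numbered libraries varied more. They were 0.0479 to 0.153 in morula, 0.0174 to 0.164 in *Pou5f1* late ICM, 0.0859 to 0.293 in *Sox2* early ICM and −0.0248 to 0.0903 in *Sox2* late ICM. There 3 of 3 pairs in morula and 3 of 4 in each of the others correlated best with their own number. So the numbers may pair the libraries in these groups too, which was not settled.

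Leaving out single libraries gave the following ranges. *Pou5f1*-KO early ICM had 6 to 10 lower and 0 to 4 higher, *Pou5f1*-KO late ICM 16 to 19 and 8 to 14, *Sox2*-KO early ICM 0 to 1 and 0 to 1, and *Sox2*-KO late ICM 5 to 10 and 5 to 8. Ctrl late morula against morula had 1 to 8 lower and 1 to 5 higher, Ctrl early ICM against late morula 9 to 13 and 33 to 42, and *Pou5f1* Ctrl late against early ICM 0 to 1 lower. The difference between knockouts had 0 to 1 lower in early and 0 to 2 in late ICM, and the effect of early ICM minus late morula 0 to 2 lower. Uncalled peaks with differences near 0 changed sign. In *Pou5f1*-KO late ICM the difference ranged from −0.14 to 0.17 at the *Fgfr1* start site, −0.11 to 0.61 at *Fgfr1* +4.1 kb, −0.83 to 0.23 at *Fgfr2* +3.2 kb and −0.19 to 0.11 at *Spry2* −4.1 kb. In *Sox2*-KO late ICM it ranged from −0.13 to 0.29 at the *Fgfr1* start site, −0.13 to 0.34 at *Fgfr2* +3.2 kb, −0.11 to 0.23 at *Spry2* −0.6 kb, −0.22 to 0.48 at *Spry2* −14.6 kb, −0.017 to 0.27 at *Dusp6* −0.1 kb and −0.11 to 0.16 at *Etv5* −0.2 kb. After quantile normalization the last 4 except *Spry2* −14.6 kb had −0.073, −0.028 and −0.054.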
